A study of Mus musculus with 16 samples.

Results

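The genes examined here encode the DREAM complex, its MuvB core, the pocket proteins and the factors that later bind MuvB, in activated mouse B cells with 1 or both alleles of Brg1 deleted. They were chosen by symbol in the annotation of the mouse genome build GRCm38, by a rule that uses no measured value but with earlier results of these data known: Rb1, Rbl1 and Rbl2 (pocket proteins), Lin9, Lin37, Lin52, Lin54 and Rbbp4 (MuvB subunits), and Mybl2 and Foxm1 (activators that bind MuvB). All 10 symbols were found among the 22028 protein-coding genes of the annotation. Each had a single accessible region at its promoter, and these 10 regions were among the 16566 regions obtained by joining the peaks of all libraries, of which 10326 overlapped a promoter of any annotated gene.

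ATAC-seq maps open chromatin by where the Tn5 transposase can insert sequencing adapters, and the measure here is the list of peaks that the authors called in each library. Splenic B cells, enriched through the surface protein CD43, were activated *in vitro* with IL-4 (20 ng/mL) and LPS (10 μg/mL), and 50000 cells went into each library. The sample labels give 72 hours of activation and the design text gives 96 hours. 4 libraries were Brg1 fl/+ CD23Cre +/- and 4 were Brg1 fl/fl CD23Cre +/-. Both genotypes therefore carried the CD23-Cre transgene, which acts in mature B cells, and the control had itself lost 1 allele of Smarca4, the gene for the chromatin remodelling ATPase Brg1, so that the comparison is of 1 deleted allele with 2. The sources do not say whether the 4 libraries of a genotype come from 4 mice, and p-values measure the spread between these libraries, which may be technical. The cells are a bulk population, so fewer cells with an open promoter and a less open promoter in each cell cannot be told apart.

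The pocket proteins, which include the retinoblastoma protein, bind E2F factors and hold back genes needed for DNA replication until cyclin-dependent kinases phosphorylate them. In resting cells p107 (Rbl1) or p130 (Rbl2) joins E2F4 or E2F5 and the MuvB core into DREAM, which represses genes of the G1/S transition through E2F sites and genes of mitosis through the cell cycle homology region (CHR). When cells enter the cycle MuvB leaves the pocket protein and binds B-Myb (Mybl2) and later FoxM1, which turn the mitotic genes on. Naive splenic B cells are quiescent, and LPS with IL-4 drives them into repeated division.

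The lists held 6271 to 14614 peaks. The background recovered from them, a measure of depth, ranged from 2.76 to 6.89 fragments per kb, and 26.7% to 46.6% of protein-coding genes had a promoter peak in a given library. Brg1 fl/+ replicate 1 had the longest list, and Brg1 fl/+ replicate 3 and Brg1 fl/fl replicate 2 the shortest. A promoter with no peak in a list may still have been open. Of the B cell marker genes reported here, Ms4a1 (CD20), Pax5 and Cd74 had a promoter peak in all 8 lists and Ebf1 in 6, Cd79a had one in 1 list, and Cd79b and Cd22 had none. None of the 7 T cell, 6 myeloid and 4 erythroid marker genes had a promoter peak in any list. A promoter peak at Smarca4 would not check the genotype, and the peak lists hold no measure of the deleted exons.

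The sequences at the start sites show what lies under these peaks. Each is read from the RefSeq copy of GRCm38 on the strand of the gene, from position -150 to position 19, where 0 is the nearest protein-coding start site, and capitals mark letters of the motifs searched. Rb1 (chr14:73325803-73325972, minus strand) and Rbl1 (chr2:157204493-157204662, minus strand) are shown because they hold E2F letters. Lin37 (chr7:30559819-30559988, minus strand) is shown because the CHR letters lie at the start site. Mybl2 (chr2:163054537-163054706, plus strand) is shown because its peak heights did not overlap between genotypes in the 3 libraries of each with a peak. Its difference did not pass the threshold in the test below.
Rb1: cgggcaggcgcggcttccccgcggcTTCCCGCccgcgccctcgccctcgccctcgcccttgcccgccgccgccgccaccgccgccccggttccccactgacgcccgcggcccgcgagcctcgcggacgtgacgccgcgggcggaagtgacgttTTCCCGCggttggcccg
Rbl1: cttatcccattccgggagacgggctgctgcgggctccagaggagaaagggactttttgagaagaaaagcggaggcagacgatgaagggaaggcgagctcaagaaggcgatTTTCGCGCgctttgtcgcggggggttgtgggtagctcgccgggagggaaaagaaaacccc
Lin37: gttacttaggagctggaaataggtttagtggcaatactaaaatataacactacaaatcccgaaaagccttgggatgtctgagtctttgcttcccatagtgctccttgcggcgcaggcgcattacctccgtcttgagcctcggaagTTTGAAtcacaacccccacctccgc
Mybl2: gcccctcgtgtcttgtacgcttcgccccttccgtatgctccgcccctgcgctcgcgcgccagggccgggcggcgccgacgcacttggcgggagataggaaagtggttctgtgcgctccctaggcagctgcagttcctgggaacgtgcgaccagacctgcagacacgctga

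The CHR letters were also found at Lin9 (chr1:180641327-180641356, plus strand) and Rbl2 (chr8:91070102-91070131, plus strand), each shown as 30 bases around the match.
Lin9: gggcgggcagccTTTGAAaaagcggcgcgg
Rbl2: ggcgcttcgcggTTTGAAtggctgcgggcc

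Motifs were searched on both strands in the 300 bases centred on the median summit of each promoter region. The CHR letters TTTGAA occurred at 4 of the 10 genes, Rbl2, Lin9 and Lin37 among them, against 8.10% of 10324 promoter regions. They started at position 57 in Rbl2, 5 in Lin9 and -5 in Lin37. CCAAT, the letters bound by NF-Y, was found at 4 genes, Lin37, Lin52 and Rbbp4 among them, against 37.7% of promoter regions, and Lin52 held 4 copies. The E2F letters GCGGGAA occurred at Rb1 alone, at positions -125 and 3, against 10.3% of promoter regions. A second E2F form, TTTNGCGC, was added after the sequences were seen. It occurred at Rbl1 alone, at position -40, against 2.62%. Only exact letters were counted. The Mybl2 sequence shown holds GCGGGAG, which differs from GCGGGAA in the last letter. That form was not searched, so a missing match does not mean that no E2F site is present. The letters AACGG (Myb), CCGGAAG (ETS) and GCATGCGC (NRF1) were found at none of the 10, against 24.4%, 20.9% and 6.51% of promoter regions. The CHR and E2F letters do not overlap each other. With 10 genes these shares are descriptions, and a match is not a bound site. The 10 windows held 50.3% to 82.0% G and C, with a median of 68.8% against 66.0% over all promoter regions, the highest at Rb1 and the lowest at Lin52.

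All 10 genes were detected with a promoter peak in both genotypes. Of the 80 combinations of gene and library, 68 held a peak. Rb1, Rbl1, Lin52, Lin54 and Rbbp4 had one in all 8 libraries. Foxm1 lacked a peak in Brg1 fl/+ replicate 3. Lin37 lacked one in replicate 3 of each genotype, and Mybl2 in Brg1 fl/+ replicate 3 and Brg1 fl/fl replicate 4. Lin9 had a peak in 2 Brg1 fl/+ and 3 Brg1 fl/fl libraries, and Rbl2 in 2 and 2. Among all protein-coding genes 47.6% had a promoter peak in at least 1 library and 21.9% in all 8. Of the coding genes with a promoter peak in at least 1 library, 46.1% had one in all 8.

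The number of the 10 genes with a promoter peak was 10, 10, 5 and 8 in Brg1 fl/+ replicates 1 to 4 and 10, 8, 8 and 9 in Brg1 fl/fl replicates 1 to 4, a mean of 8.25 ± 2.36 against 8.75 ± 0.957 (SD, n = 4 each). The groups overlapped, and the difference of 0.50 genes turned to -0.583 without Brg1 fl/+ replicate 3, the library with the lowest count. With every list cut to the same number of peaks the difference was 1.75 genes, and with a −log10 q of 10 or more required it was -0.50. The count did not follow depth throughout: Brg1 fl/+ replicate 3, with 5 genes, had the lowest background (2.76 fragments per kb) and 27.4% of coding genes detected, while Brg1 fl/fl replicate 2 had 8 genes at 3.39 fragments per kb and 26.7%, and Brg1 fl/fl replicate 3 had 8 genes at 6.27 fragments per kb. Compared with Brg1 fl/+, 0 of the 10 genes had a peak in fewer libraries of Brg1 fl/fl and 2, Foxm1 and Lin9, had one in more. Of the 10489 coding genes with a promoter peak in any library, 32.3% had one in fewer libraries of Brg1 fl/fl and 11.5% in more.

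**Figure D1:**
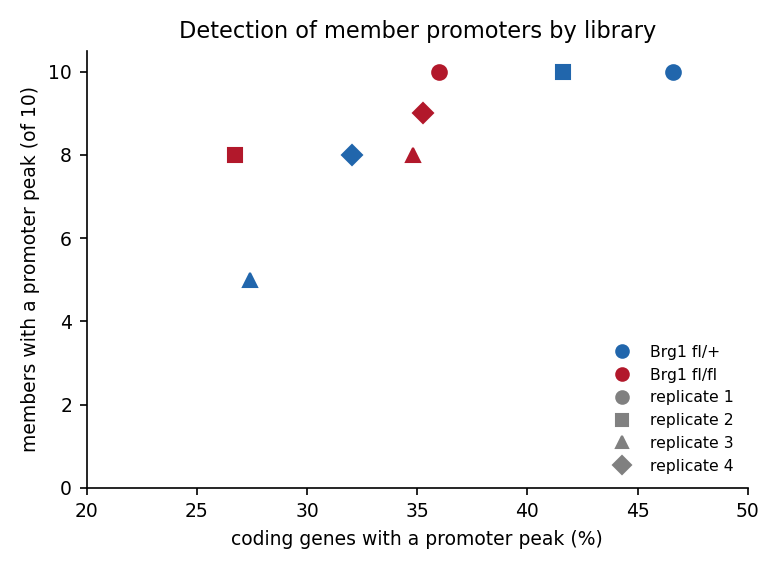
Number of the 10 genes with a promoter peak (vertical axis) against the percent of protein-coding genes with one (horizontal axis), 1 point per library, blue for Brg1 fl/+ and red for Brg1 fl/fl, shapes for replicates. The points run from 5 genes in Brg1 fl/+ replicate 3 to 10 genes in Brg1 fl/+ replicates 1 and 2 and Brg1 fl/fl replicate 1, and the genotypes overlap.

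**Figure D2:**
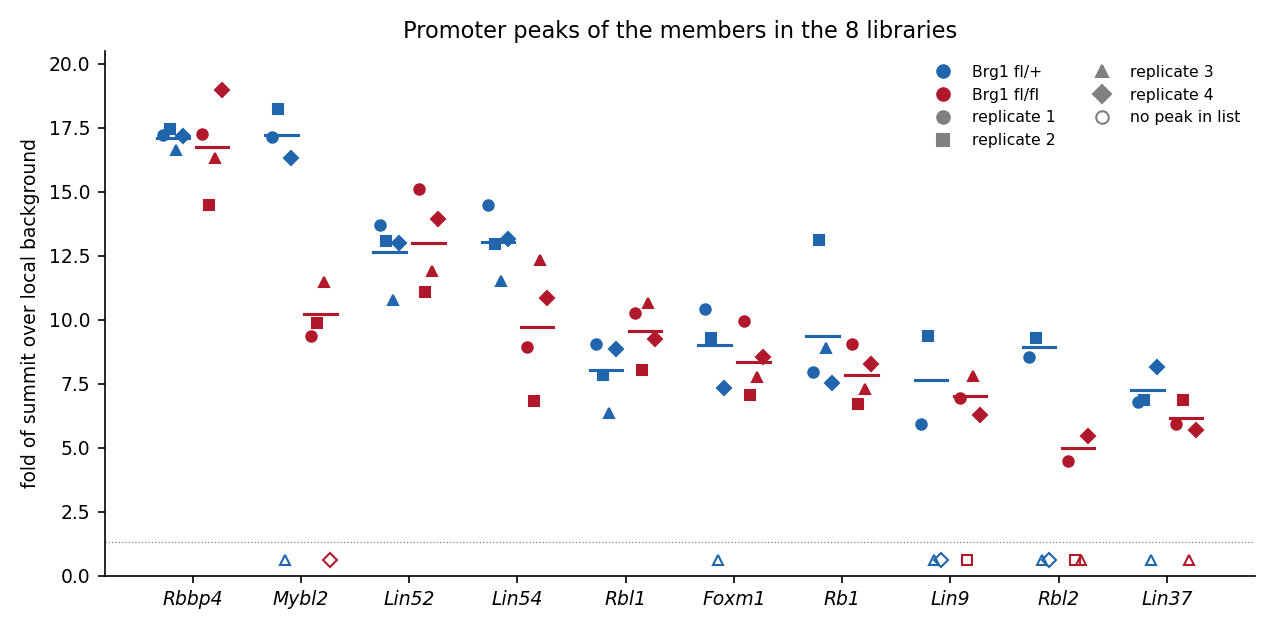
Fold over local background (vertical axis) of the promoter peak of each gene in each library, with short lines at the mean of the libraries that have a peak and open symbols below the dotted line where a list holds none. Rbbp4 has the highest mean over both genotypes, and Lin9 and Rbl2 lack a peak in several libraries. Among libraries with a peak, Mybl2 (3 per genotype) and Rbl2 (2 per genotype) show no overlap between genotypes.

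Peak height was measured as the deposited fold, the ratio of the summit to the background around it in that library, which is not a read count. Among the MuvB subunits Rbbp4, a histone-binding WD40 protein that also belongs to other chromatin complexes, had the highest peak, at chr4:129335075-129335980. Its folds were 17.2, 17.4, 16.6 and 17.2 in Brg1 fl/+ replicates 1 to 4 and 17.2, 14.5, 16.3 and 19.0 in Brg1 fl/fl replicates 1 to 4, over 63 to 188 fragments at the summit. The groups overlapped, and within each list the peak ranked by q value in the top 0.479% to 2.06%. Its summits lay between positions -79 and -73 in all 8 libraries, the narrowest spread of the 10 genes. The region also covers the start of Zbtb8os, which lies 325 bp away on the other strand, so that the accessibility of the 2 genes cannot be told apart.

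Lin52, the subunit whose phosphorylation by DYRK1A lets the pocket protein bind, had folds of 13.7, 13.1, 10.8 and 13.0 in Brg1 fl/+ and 15.1, 11.1, 11.9 and 13.9 in Brg1 fl/fl (chr12:84450949-84451707). The groups overlapped, with 2 Brg1 fl/fl libraries above all Brg1 fl/+ libraries. The region is shared with Aldh6a1, which starts 418 bp away on the other strand. Lin54, the subunit that binds the CHR through its cysteine-rich domains, had folds of 14.5, 13.0, 11.5 and 13.1 in Brg1 fl/+ and 8.91, 6.81, 12.3 and 10.8 in Brg1 fl/fl (chr5:100500459-100500921). The Brg1 fl/+ libraries were close together, and Brg1 fl/fl replicate 3 lay within their range while the other 3 lay below it. A miRNA gene, Gm23222, starts 408 bp away on the same strand.

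The other MuvB subunits had lower peaks that were missed in some libraries. Lin37, a subunit needed for repression by DREAM, had folds of 6.78, 6.87 and 8.13 in Brg1 fl/+ replicates 1, 2 and 4 and 5.94, 6.86 and 5.70 in Brg1 fl/fl replicates 1, 2 and 4 (chr7:30559636-30559942). Its region was 307 bp wide, the narrowest of the 10, and it was missed in replicate 3 of each genotype. Lin9, a scaffold subunit of MuvB, had folds of 5.92 and 9.36 in Brg1 fl/+ replicates 1 and 2 and 6.96, 7.79 and 6.27 in Brg1 fl/fl replicates 1, 3 and 4 (chr1:180641043-180641637). The groups overlapped at both genes, and no other annotated gene starts within 1000 bp of either.

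Of the pocket proteins, Rb1, the retinoblastoma protein, had folds of 7.95, 13.1, 8.87 and 7.51 in Brg1 fl/+ and 9.05, 6.72, 7.30 and 8.26 in Brg1 fl/fl (chr14:73325669-73326226). Brg1 fl/+ replicate 2 stood above the other libraries, which overlapped between genotypes. Rbl1 (p107) had folds of 9.04, 7.85, 6.36 and 8.87 in Brg1 fl/+ and 10.3, 8.04, 10.6 and 9.26 in Brg1 fl/fl (chr2:157204029-157204899), over 11 to 40 fragments at the summit. The folds overlapped between genotypes, with 3 of the 4 Brg1 fl/fl libraries above all Brg1 fl/+ libraries. Its summit moved from position -192 to 245 between libraries, the widest spread of the 10 genes, so the summits do not mark 1 position. Rbl2 (p130), the main pocket protein of DREAM in resting cells, had folds of 8.53 and 9.30 in Brg1 fl/+ replicates 1 and 2 and 4.49 and 5.46 in Brg1 fl/fl replicates 1 and 4 (chr8:91069799-91070817). The 4 values did not overlap, but each group had 2, and the other 2 libraries of each had no peak.

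**Figure D3:**
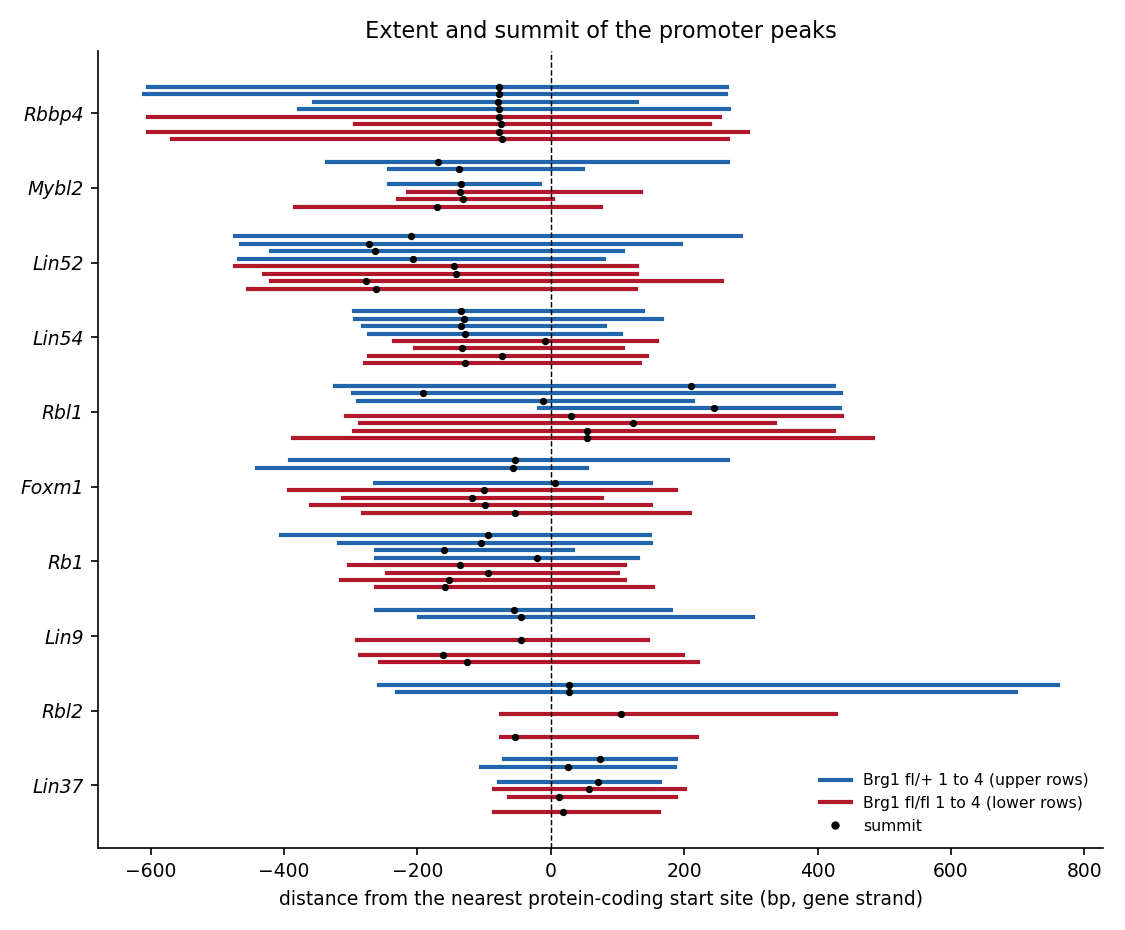
Promoter peaks of each gene in Brg1 fl/+ replicates 1 to 4 (blue, upper 4 rows of each gene) and Brg1 fl/fl replicates 1 to 4 (red, lower 4 rows), with a dot at the summit; the horizontal axis is the distance in bp from the nearest protein-coding start site on the strand of the gene, and an empty row is a library with no peak. The summits of Rbbp4 stay between -79 and -73 bp, and those of Rbl1 spread from -192 to 245 bp.

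Mybl2 (B-Myb), an activator that binds MuvB, showed folds of 17.1, 18.2 and 16.3 in Brg1 fl/+ replicates 1, 2 and 4 and 9.35, 9.88 and 11.5 in Brg1 fl/fl replicates 1, 2 and 3 (chr2:163054304-163054952), over 18 to 74 fragments at the summit. All 3 Brg1 fl/fl values lay below all 3 Brg1 fl/+ values. These folds are not centred, and the library medians differed by -0.20 on the log2 scale (Brg1 fl/fl minus Brg1 fl/+). With the medians subtracted, the values still did not overlap. The same held, with lower values in Brg1 fl/fl, for 9.13% of the 6530 regions with a peak in at least 3 libraries of each genotype. The peak was missing from the lists of Brg1 fl/+ replicate 3 and Brg1 fl/fl replicate 4. Such a gap was rare among peaks at or above a lower limit just under its own folds. Of 327 regions with a fold of at least 16 in Brg1 fl/+ replicates 1, 2 and 4, 10 (3.06%) had no peak in replicate 3. Of 2334 regions with a fold of at least 9 in Brg1 fl/fl replicates 1, 2 and 3, 3 (0.129%) had none in replicate 4. No upper limit was set, so these shares also cover taller peaks than that of Mybl2. These limits were chosen after the values of Mybl2 were seen. Foxm1, the forkhead activator of mitotic genes, had folds of 10.4, 9.28 and 7.32 in Brg1 fl/+ replicates 1, 2 and 4 and 9.95, 7.07, 7.76 and 8.56 in Brg1 fl/fl replicates 1 to 4, which overlapped. Its region is shared with Rhno1, which starts 56 bp away on the other strand.

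Folds were then compared between genotypes on the log2 scale, after subtracting from each library its median over the 4593 regions with a peak in all 8 lists. This centring mattered, because the library medians were 0.20 lower in Brg1 fl/fl than in Brg1 fl/+ on the log2 scale. All differences are therefore relative to that shift. Across the 4593 regions the limma test, with Benjamini-Hochberg adjustment, called 75 higher (1.63%) and 61 lower (1.33%) in Brg1 fl/fl. Without centring 4 were called higher and 104 lower, and with fragments at the summit in place of the fold, 323 higher and 131 lower.

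5 of the 10 genes could be tested in this way, and 1 of them, Rbl1, was called. After centring, its log2 folds were -0.59, -0.75, -0.71 and -0.44 in Brg1 fl/+ and -0.13, -0.20, -0.06 and -0.27 in Brg1 fl/fl, which did not overlap. The difference was 0.46 ± 0.11 (SE; 95% confidence interval 0.22 to 0.69), or 1.37-fold higher in Brg1 fl/fl (limma, adjusted p = 0.0338). The call was lost in 8 of 17 alternatives: without centring (difference 0.26, adjusted p = 0.305), with libraries averaged in pairs, with a variance trend, with a replicate block, and without Brg1 fl/+ replicate 1 (0.0685) or 2 (0.105) or Brg1 fl/fl replicate 1 (0.0863) or 3 (0.0852), with adjusted p from 0.00851 to 0.305 over all 17. Its sign was positive in all of them.

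The other 4 tested genes were not called. The difference was 0.24 ± 0.11 (SE) for Lin52 (adjusted p = 0.208) and 0.17 ± 0.11 for Rbbp4 (adjusted p = 0.395). For Rb1 it was -0.03 ± 0.15, with a 95% confidence interval from -0.34 to 0.29 (adjusted p = 0.931). For Lin54 it was -0.25 ± 0.13 (adjusted p = 0.270). With fragments at the summit in place of the fold, the Lin54 difference was -0.55 and passed the threshold (adjusted p = 0.0345), which no other alternative gave, and that for Lin52 was -0.01. Without centring the difference for Rbbp4 was -0.04. The median difference over the 5 genes was 0.17, against 0.03 over all 4593 regions.

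A looser filter, a peak in at least 3 libraries of each genotype, took in 6530 regions and 8 of the 10 genes and called 107 regions higher (1.64%) and 185 lower (2.83%) in Brg1 fl/fl. Missing values were left out and not imputed. Mybl2 entered with 3 libraries of each genotype. Its centred log2 folds were 0.33, 0.46 and 0.44 in Brg1 fl/+ and -0.26, 0.09 and 0.05 in Brg1 fl/fl. The difference was -0.45 ± 0.14 (SE; 95% confidence interval -0.76 to -0.14), and it did not pass the threshold after adjustment (limma, adjusted p = 0.0869). The centred values of 2 of the 8 genes did not overlap between genotypes, higher in Brg1 fl/fl at Rbl1 and lower at Mybl2. Over the 6530 regions 7.29% did not overlap with higher and 9.13% with lower values in Brg1 fl/fl. Foxm1 had a difference of 0.17 ± 0.13 (adjusted p = 0.457) and Lin37 of 0.06 ± 0.17 (adjusted p = 0.853). Rbl1 kept its call (adjusted p = 0.0383). Lin9 and Rbl2 had too few libraries for a test, and their differences were 0.18 and -0.58. The sign for Lin9 turned without Brg1 fl/+ replicate 1 (-0.18), and that for Lin37 without Brg1 fl/+ replicate 1 (-0.02) or Brg1 fl/fl replicate 2 (-0.09).

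**Figure D4:**
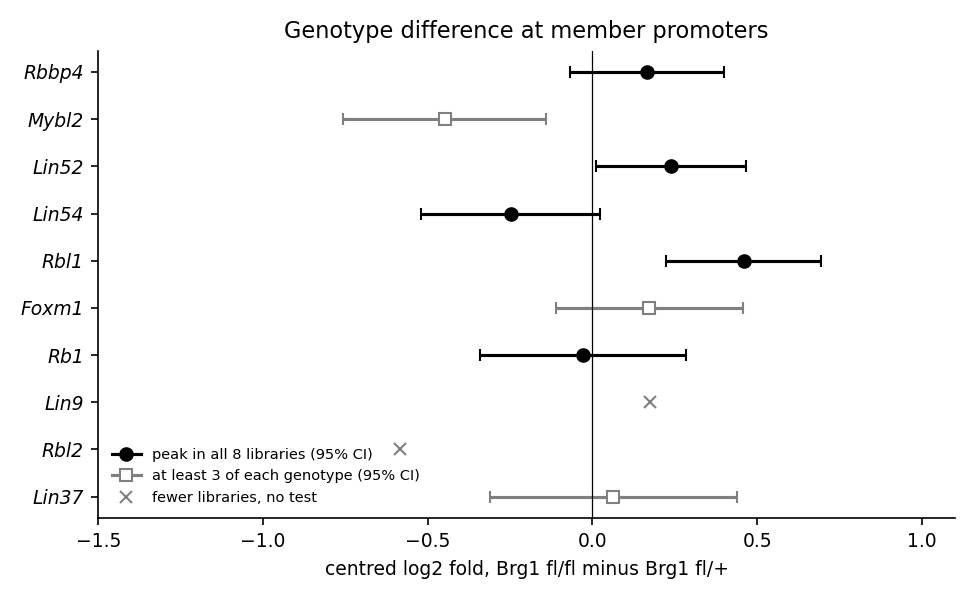
Difference of the centred log2 fold of the promoter peak, Brg1 fl/fl minus Brg1 fl/+ (horizontal axis), for each gene, with 95% confidence intervals from limma for genes with a peak in all 8 libraries (black) or in at least 3 of each genotype (grey squares), and crosses where no test was made. The intervals for Rbl1 and Lin52 lie above 0 and that for Mybl2 below 0. No interval is adjusted for the number of regions tested, 4593 for the black points and 6530 for the grey squares.

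Apart from the promoter peaks, 7 regions lay in the bodies of the genes or within 10 kb of them, and they belonged to 4 genes. 6 genes (Rb1, Rbl1, Lin9, Lin52, Lin54 and Rbbp4) had none. 4 of the 7 overlapped the promoter of another gene, and these were detected most often. Near Rbl2, the region at the promoter of Aktip (chr8:91133633-91134385), 9788 bp beyond the end of Rbl2, had folds between 15.3 and 16.8 in Brg1 fl/+ libraries and between 13.5 and 16.2 in Brg1 fl/fl libraries, above the Rbl2 promoter in each of the 4 libraries where that had a peak. Its centred difference was 0.09 ± 0.11 (SE; adjusted p = 0.673).

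On either side of Lin37, the region at the promoter shared by Hspb6 and Proser3 (chr7:30551852-30552706) had folds of 12.0, 11.7, 8.40 and 9.59 in Brg1 fl/+ and 8.64, 6.86, 6.23 and 6.95 in Brg1 fl/fl. After centring the groups did not overlap, and the difference of -0.33 ± 0.12 did not pass the threshold (limma, adjusted p = 0.114). The region at Psenen and U2af1l4 (chr7:30562861-30563771) had folds between 6.53 and 10.3 in Brg1 fl/+ libraries and between 5.39 and 9.01 in Brg1 fl/fl libraries, with a difference of -0.04 ± 0.13 (adjusted p = 0.876). Upstream of Foxm1, the region at Tulp3 (chr6:128355532-128356120) had folds of 10.7, 11.0, 7.78 and 11.7 in Brg1 fl/+ and 6.64, 6.10 and 6.83 in Brg1 fl/fl replicates 1, 3 and 4. With the looser filter it was called lower in Brg1 fl/fl, by a difference of -0.51 ± 0.13 (limma, adjusted p = 0.0428), while Foxm1, whose start lies 7141 bp from it, was not called.

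The 3 regions at no promoter were weak. One in an intron of Rbl2 (chr8:91081944-91082707) was found in Brg1 fl/+ replicates 1 and 2 alone, with folds of 6.14 and 5.56, and these are the libraries with the longest lists. Another in an intron of Rbl2 (chr8:91093767-91094056) was found in Brg1 fl/fl replicate 3 alone, with a fold of 4.47. The last, 6113 bp before Mybl2 (chr2:163048269-163048573), was found in Brg1 fl/+ replicate 2 alone, with a fold of 4.43 over 7 fragments at the summit.

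**Figure D5:**
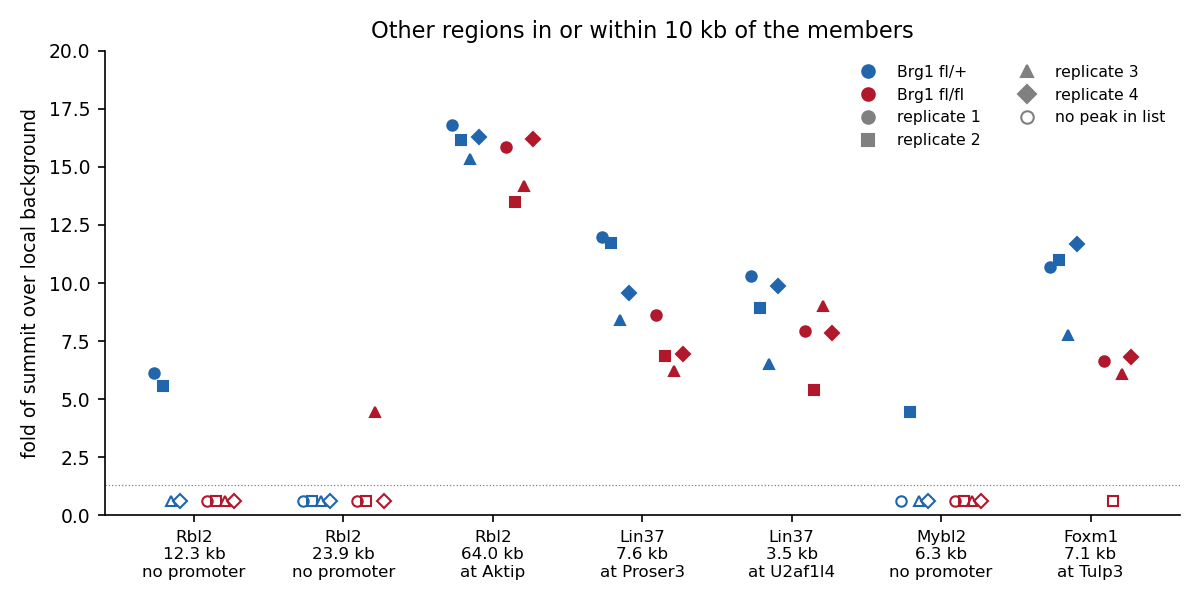
Fold of the summit over local background (vertical axis) in each library for the 7 other regions, labelled with the gene, the distance of the region from its start site and any other gene whose promoter it overlaps; open symbols mark lists with no peak. The regions at Aktip, Proser3, U2af1l4 and Tulp3 were found in 7 or 8 libraries and the other 3 in 1 or 2.

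Most of the partners of these genes also had a promoter peak in every list. Of 8 partners and paralogues, 6 (E2f5, Tfdp1, Tfdp2, Dyrk1a, Rbbp7 and Mybl1) had a promoter peak in all 8 libraries. E2f4, the E2F most often found in DREAM, had one in 1 Brg1 fl/+ library alone, and Myb in 2 Brg1 fl/+ and 3 Brg1 fl/fl libraries. None of the 6 that could be tested was called by limma, and 1, Tfdp2, was lower at an unadjusted p under 0.05 (difference -0.36 ± 0.14, adjusted p = 0.140). An unadjusted p under 0.05 was common, at 1010 of all 4593 regions in either direction.

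Of 13 upstream cyclins, kinases and inhibitors, 7 had a promoter peak in all 8 libraries. Ccnd1 (cyclin D1) and Cdkn1a (p21) had none in any, while Cdk6, a kinase that phosphorylates the pocket proteins, had one in 3 Brg1 fl/+ and 0 Brg1 fl/fl libraries. Its peaks were weak, with folds of 4.31 to 4.65. Cdk6 was the 1 gene of the 13 with a peak in fewer Brg1 fl/fl libraries, and 3 had one in more. Over all coding genes with a promoter peak these shares were 32.3% and 11.5%. The 8 tested regions included that of Cdkn2c. This joined region had a peak in all 8 lists, but a peak reached the Cdkn2c promoter in only 2 Brg1 fl/+ and 3 Brg1 fl/fl libraries. 0 of the 8 regions were called by limma. At an unadjusted p under 0.05, 1 was higher, beside 1010 of all 4593 regions in either direction. With the looser filter 1 of 10, Ccnd3 (cyclin D3), was called lower in Brg1 fl/fl, by -0.68 ± 0.14 (adjusted p = 0.0193). Of the 6530 regions of that filter 2.83% were called lower.

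Of 16 genes of the G1/S transition, 13 had a promoter peak in all 8 libraries and 1, Tyms, in none. 0 of the 13 tested were called by limma, and the median difference was -0.09. At an unadjusted p under 0.05, 1 was higher and 2 lower, beside 1010 of all 4593 regions in either direction. Of 18 mitotic genes, 6 had a peak in all 8 libraries and 12 in some. Brg1 fl/fl had fewer libraries with a peak than Brg1 fl/+ for 6 of the 18 and more for 4, beside 32.3% and 11.5% of all coding genes with a promoter peak, so that the share with fewer was close to that background. Ccnb2 (cyclin B2) had a promoter peak in 3 Brg1 fl/+ and 0 Brg1 fl/fl libraries, and Aurkb, Bub1b and Cdc25c in 2 and 0, while Cdc20, which activates the anaphase-promoting complex, had one in 1 and 3. Ccnb1 (cyclin B1), which activates Cdk1 at entry into mitosis, was called lower in Brg1 fl/fl, by -0.60 ± 0.12 (SE; limma, adjusted p = 0.0159), the 1 call among the 6 mitotic genes tested. Of all 4593 regions 1.33% were called lower. The median difference over the 6 mitotic genes was -0.19.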

How the data were processed

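ATAC-seq peak lists of 8 libraries, 4 per genotype, were analysed, grouped by the genotype and replicate number in the sample labels; 8 RNA-seq libraries were not used here, and 1 marker gene and 1 promoter sequence are not reported here. Bowtie2 was used by the authors to align the paired-end reads to mm10 (GRCm38), and MACS2 to call peaks library by library, without pooling. Versions, options, duplicate handling and any Tn5 offset are not given in the sources used here. The deposited lists hold a fold (ratio) of summit over local background, with a −log10 p, a −log10 q and a score as deposited. Their lowest −log10 q was 1.31 to 1.36.

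Overlapping or touching peaks were joined. A promoter covered 1000 bp before and 100 bp after any start site of GENCODE vM21, and other regions lay in the gene or within 10 kb. Where a library had several peaks in a region, the one with the highest fold was used. Fragments at the summit were recovered from fold and −log10 p (99.7% to 99.8% of peaks, within 0.002). Depth limits precision: member summits held 11 to 188 fragments. The test was limma 3.58.1 (R 4.3.3) on centred log2 folds with Benjamini-Hochberg adjustment and a threshold of 0.05, which covers 4 libraries per genotype. All 10 genes are named, with neighbours within 1000 bp and, of the other lists, genes called, genes differing by 2 or more libraries between genotypes, and genes with no promoter peak; a few further list genes were named after their values were seen. Members and lists were chosen with earlier results of these data known. Other settings tried were fragments in place of folds, other centring and filters, a minimum −log10 q of 5 or 10, lists cut to the same length, other distances, a replicate block, pairs of libraries averaged, and each library left out. A variance trend in limma and the second E2F form were added after the data were seen. Over 4234 promoter regions, the variance between the recovered heights of 2 libraries was divided by that of sampling noise. This ratio was 0.757 to 1.18 for the same genotype and 0.998 to 1.81 for different genotypes. All pairs of Brg1 fl/fl libraries were below 1, as were some of Brg1 fl/+, the lowest being replicates 3 and 4 (0.757). No single pair stood out as a repeat deposit, but such values cannot tell technical repeats from separate mice. Each library was counted as 1, with pairs averaged as an alternative. The deposited file names group replicates 1 with 2 and 3 with 4 of each genotype. The steps were tested on simulated data. Python 3.11.15, pandas 2.3.3, scipy 1.17.1, pysam 0.24.0 and samtools 1.23.1 were used.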

Additional observations from a re-analysis of the deposited data

How the results depend on the processing

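Of the 5 tested promoters, Rbl1 was the 1 call. Fragments at the summit called 2 (Rbl1 and Lin54), and no centring, the replicate block, libraries averaged in pairs, a variance trend (added after the data were seen), a minimum −log10 q of 10, and lists of the same length each called 0. At the last 2 settings Rbl1 no longer had a peak in all lists and was not tested. Leaving out 1 library called 0 to 1. The adjusted p for Rbl1 was 0.0608 with the replicate block, 0.109 with pairs averaged and 0.0522 with the variance trend. Same-numbered libraries did not deviate together (r from -0.0912 to 0.0126). Libraries of a genotype differed about as much as sampling noise, so this cannot tell whether the numbers pair them. The block called 105 regions in all.

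Over all regions 136 were called, against 454 with fragments, 292 with the looser filter, 40 with pairs averaged, 251 with the variance trend, 86 with lists of the same length and 50 to 258 with 1 library left out (258 without Brg1 fl/+ replicate 3). The cause was not tested.

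The sign turned for Rb1 with 1 library left out (-0.15 to 0.11), for Lin52 with fragments (-0.0077) and for Rbbp4 without centring (-0.037). It also turned for Lin9 without Brg1 fl/+ replicate 1 (-0.18) and with a minimum −log10 q of 10 (-0.14), and for Lin37 without Brg1 fl/+ replicate 1 (-0.02) or Brg1 fl/fl replicate 2 (-0.09) and in lists of the same length (-0.03). Promoters detected in all libraries fell from 5 to 2 when −log10 q had to reach 10 and to 3 in lists of the same length. The other regions numbered 4 with that minimum, 4 in lists of the same length, 4 within 5 kb and 13 within 25 kb. Few fragments at a summit limit precision: they numbered 14 to 23 at Lin9, 11 to 29 at Rbl2 and 23 to 51 at Lin37.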
